A study of Mus musculus with 4 samples.

Results

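The *Pramel* genes are the mouse members of the PRAME family whose symbols consist of *Pramel* and a number. They were taken from the deposited table of read counts per gene by that pattern in the symbol, which gave 47 genes of 50559. Of these, 19 had a mean count of at least 10 reads over the 4 libraries and are given ratios below, 28 had less, and 11 of the 28 had no read in any library. The table holds RNA-seq of E14 mouse embryonic stem cells (ESCs), a line of male origin that was grown with leukemia inhibitory factor (LIF) and serum replacement. The 4 libraries come from stable lines made with lentiviral hairpins under puromycin selection, and all carry a tdTomato reporter under the MERVL promoter. The control (shScram+EV) had a scrambled hairpin and an empty vector, and the knockdown (shYthdf2+EV) a hairpin against *Ythdf2* and the same vector. The wild-type rescue (shYthdf2+DF2WT) and the mutant rescue (shYthdf2+DF2Mut) joined the *Ythdf2* hairpin to wild-type YTHDF2 or to YTHDF2 mutated where it binds m6A. Rescue is only the name of these groups. The labels write the last group with the spelling shYtdhf2. There was 1 library per group, so no difference below has a replicate check, no p-value was computed, and every interval covers counting error only.

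PRAME family proteins are built of leucine-rich repeats and resemble receptors of cullin RING ubiquitin ligases. The family has expanded in the mouse into clusters of neighbouring copies, and many members are known from germ cells, oocytes and the early embryo. *Pramel7* is the best studied member in ESCs: its protein recruits the CUL2 ligase to UHRF1, a factor that maintains DNA methylation, and the gene is a target of LIF and STAT3 signalling. YTHDF2, found in the cytoplasm, reads N6-methyladenosine (m6A) on RNA and recruits the CCR4-NOT deadenylase. A small part of cultured ESCs passes through a 2C-like state, so named because such cells express genes of the 2-cell embryo, several *Pramel* genes among them.

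Total counts were between 31533129 and 35742335 reads, and 3 reads, taken as the floor, corresponded to between 0.0835 and 0.0949 CPM (counts per 1000000 scaled reads). The targeted gene *Ythdf2* had 2806 reads in the control, 662 in the knockdown, 7661 in the wild-type rescue and 6925 in the mutant rescue, where reads of the constructs and of the endogenous gene cannot be separated. The libraries also stood apart in ways that the labels do not give. The 4 Y-linked genes *Ddx3y*, *Eif2s3y*, *Kdm5d* and *Uty*, chosen after values of these libraries were seen, summed to 2 reads in the control, 604 in the knockdown, 85 in the wild-type rescue and 528 in the mutant rescue. The median log2 ratio of the knockdown to the control over 418 genes of chromosome 12 was below that of the other autosomes by a difference of -0.30, while for chromosome 4, which holds most of the *Pramel* genes measured here, the difference was -0.0025. For the same 418 genes that difference was 0.015 in the mutant rescue against the knockdown and -0.10 in the wild-type rescue against the control. Both features thus set the knockdown and the mutant rescue apart from the control, with the wild-type rescue nearer to the control, which is also the split of the *Pramel* genes described below. The part of these line differences in the *Pramel* values was not tested.

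Summed over all 47 genes, *Pramel* reads numbered 3974 in the control, 11119 in the knockdown, 4795 in the wild-type rescue and 9384 in the mutant rescue. In CPM this was 126, 309, 146 and 295. The family was therefore abundant in the library with the *Ythdf2* hairpin alone and in that with the mutant protein, and low in the control and in the library with wild-type YTHDF2. The sum in the knockdown was 2.46-fold that in the control, a log2 ratio of 1.30 (95% interval 1.22 to 1.37). The wild-type rescue stood at 0.471 of the knockdown and the mutant rescue at 0.954 of it, with log2 ratios of -1.09 (-1.16 to -1.02) and -0.07 (-0.12 to -0.01). Directly compared, the mutant rescue had 2.03-fold the sum of the wild-type rescue, a log2 ratio of 1.02 (0.95 to 1.09). The sum in the wild-type rescue remained 1.16-fold that in the control, at a log2 ratio of 0.21 (0.13 to 0.30). In bulk RNA, more cells that express a gene and more RNA per cell cannot be told apart.

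**Figure D1:**
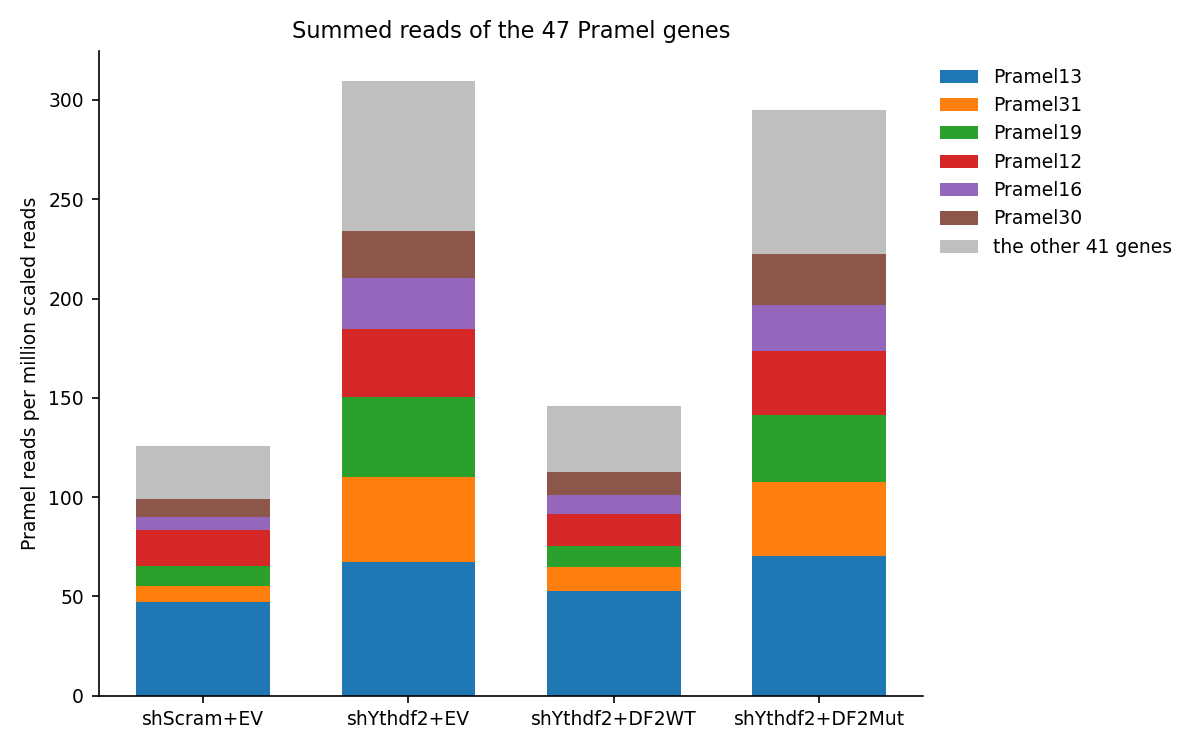
Reads of the 47 *Pramel* genes in CPM (scaled as in the text) in each of the 4 libraries, stacked by gene. The bars reach 126, 309, 146 and 295 from left to right, and *Pramel13*, at the bottom, differs by a smaller ratio between control and knockdown than each named segment above it.

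Taken gene by gene, 14 of the 19 *Pramel* genes above the minimum were at least 2-fold higher in the knockdown than in the control, where 7.1% of all 18586 genes above that minimum were, and 0 were at least 2-fold lower, against 5.7% of all genes. Their median log2 ratio was 1.40 (range -0.30 to 2.83), beside -0.0015 for all genes. A gene can pass the minimum through the library in which it is high, so these counts are read only beside the same counts over all genes, which passed the same minimum. In the wild-type rescue against the knockdown, 12 genes were at least 2-fold lower and 0 higher, against 5.58% and 5.15% of all genes, and the median log2 ratio was -1.39. In the mutant rescue against the knockdown, 0 genes passed 2-fold in either direction, against 2.65% and 3.38% of all genes, and the median was -0.09 (range -0.60 to 0.48). In the mutant rescue against the wild-type rescue, which shares no library with the first comparison, 12 genes were at least 2-fold higher and 0 lower, against 5.4% and 6.21% of all genes, with a median of 1.27. In the wild-type rescue against the control, a comparison added after the values were seen, 1 gene, *Pramel24*, was at least 2-fold higher and 0 lower, against 3.82% and 3.07% of all genes. The median of this comparison was 0.33, beside 0.0064 for all genes. Of the 19 ratios, 16 were above 0, against 50.7% of all genes, and 7 of the 19 intervals lay above 0 while 12 held it. The comparisons with the knockdown share that library, so their values are not independent of each other.

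The order of the 4 libraries also recurred. Both the knockdown and the mutant rescue were above both other libraries for 17 of the 19 genes, a pattern held by 26.4% of all genes, and the 2 others were *Pramel7* and *Pramel3*. The full order from the control through the wild-type rescue and the mutant rescue up to the knockdown was held by 8 of the 19, against 7.1% of all genes.

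**Figure D2:**
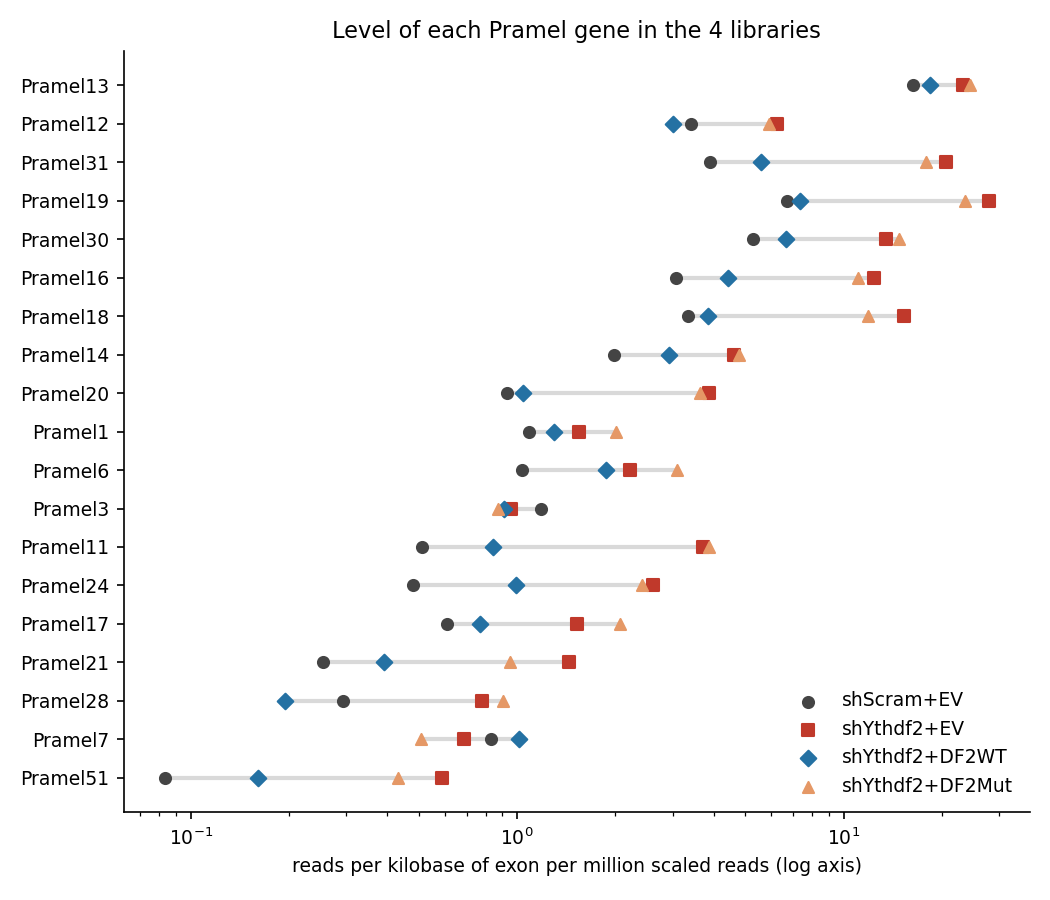
Level of each of the 19 *Pramel* genes above the minimum, in RPKM on a log axis, with 1 symbol per library. Genes are ordered by mean count, and for 17 of them both the knockdown square and the mutant rescue triangle lie to the right of the other symbols.

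The genes lie in a few genomic runs, defined here as neighbours less than 1 Mb apart, with coordinates on mm39. The largest run, on distal chromosome 4 (chr4:143120889-144135037), holds 21 of the genes, 12 of them above the minimum. A second run more proximal on the same chromosome (chr4:101692166-101800380) holds *Pramel17*, *Pramel18* and *Pramel19*, all above it. A run on chromosome 5 (chr5:93629686-95884032) holds 18 genes, 0 of which reached the minimum. *Pramel6* and *Pramel7* are neighbours on chromosome 2, and *Pramel3*, *Pramel32* and *Pramel51* lie alone on chromosomes X, 4 and 12. Summed by run, the log2 ratio of the knockdown to the control was 2.06 (1.86 to 2.26) in the proximal chromosome 4 run, 1.19 (1.11 to 1.27) in the distal run and 0.66 (0.19 to 1.15) in the chromosome 2 pair.

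*Pramel13* (chr4:144118244-144135037, minus strand), at the end of the distal run, was the most abundant member by reads. It had 1492 reads in the control, 2416 in the knockdown, 1743 in the wild-type rescue and 2235 in the mutant rescue. The 2 high libraries were those of the family, but its log2 ratio of the knockdown to the control was 0.51 (0.38 to 0.64), an interval that lies below 2-fold and below those of *Pramel18*, *Pramel19* and *Pramel31*. Its share of all *Pramel* reads therefore went from 37.5% (exact 95% interval 35.4 to 39.7) in the control to 21.7% (20.7 to 22.8) in the knockdown, 36.4% (34.4 to 38.3) in the wild-type rescue and 23.8% (22.6 to 25.1) in the mutant rescue. Its other log2 ratios were -0.34 for the wild-type rescue and 0.06 for the mutant rescue against the knockdown, and 0.41 between the rescue libraries.

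*Pramel19* (chr4:101797604-101800380, plus strand) had 307, 1451, 352 and 1087 reads in the control, the knockdown, the wild-type rescue and the mutant rescue, and reads below are given in this order. Per length, its level was 6.69 RPKM (CPM per kilobase of exon) in the control, where *Pramel13* stood at 16.4. In the knockdown it was 27.8, above the 23.3 of *Pramel13*, so the gene with the most counted reads per length differed between the libraries. Its log2 ratio was 2.05 (1.80 to 2.32) in the knockdown against the control, -1.91 (-2.16 to -1.68) for the wild-type and -0.24 (-0.40 to -0.08) for the mutant protein against the knockdown, and 1.67 (1.43 to 1.93) between the rescue libraries. *Pramel18* (chr4:101766318-101769105), its neighbour, had 153, 798, 184 and 549 reads. Its corresponding log2 ratios were 2.19 (1.84 to 2.57), -1.99 (-2.33 to -1.66), -0.36 (-0.59 to -0.14) and 1.62 (1.28 to 1.98). *Pramel17* (chr4:101692166-101701219) had fewer reads, 38, 108, 50 and 130, with log2 ratios of 1.31 (0.54 to 2.16), -0.98 (-1.73 to -0.27), 0.44 (-0.10 to 0.99) and 1.42 (0.74 to 2.16). All 3 genes of this run thus kept the 2 low and the 2 high libraries apart, and for *Pramel18* and *Pramel19* the mutant library was slightly lower than the knockdown beyond counting error.

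*Pramel31* (chr4:144084534-144090989, plus strand) was the most abundant strong responder of the distal run, with 257, 1543, 383 and 1181 reads. Its log2 ratio was 2.40 (2.13 to 2.68) in the knockdown against the control, -1.88 (-2.12 to -1.65) for the wild-type and -0.21 (-0.37 to -0.05) for the mutant protein against the knockdown, and 1.67 (1.44 to 1.92) between the rescue libraries. It stayed above the control in the wild-type rescue, by a log2 ratio of 0.52 (0.19 to 0.85). *Pramel20*, its closest copy, had 62, 293, 72 and 243 reads, with log2 ratios of 2.05 (1.49 to 2.66), -1.89 (-2.47 to -1.36), -0.09 (-0.45 to 0.26) and 1.80 (1.26 to 2.38) in the same comparisons. The longest open reading frames of *Pramel31* and *Pramel20* were 96.7% identical, and their promoter windows 75.6%.

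Promoter windows from 250 bases before to 50 after the start site (RefSeq, GRCm38.p6) matched 37 of the 47 genes, 15 of them above the minimum. They were searched on both strands for GATTNAATC, letters close to those that the 2C factor DUX binds. 3 windows held it, those of *Pramel31*, *Pramel20* and *Pramel17*, compared with 0.268% of all 32851 promoter windows. TGCACAC, close to letters that ZSCAN4 binds, was in 0 of the 37 (4.4% of all windows), and TTCNNNGAA, the letters of STAT factors, was in 0 of the 37 (8.3% of all windows). The windows of near copies are not independent of each other. The stretches around the matches are shown because these genes are among those that move together. They are written 5′ to 3′ on the strand of the gene, and the capitals mark the matched letters, which begin 136 bases before the start in *Pramel31*, 105 in *Pramel20* and 123 in *Pramel17* (GRCm38.p6 chr4:144357778-144357886, plus strand; chr4:143567312-143567420, plus strand; chr4:101844087-101844195, minus strand).
Pramel31: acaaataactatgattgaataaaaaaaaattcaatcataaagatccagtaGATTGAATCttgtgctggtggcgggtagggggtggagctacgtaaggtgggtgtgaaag
Pramel20: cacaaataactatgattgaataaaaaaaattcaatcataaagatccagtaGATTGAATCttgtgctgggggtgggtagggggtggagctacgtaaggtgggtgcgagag
Pramel17: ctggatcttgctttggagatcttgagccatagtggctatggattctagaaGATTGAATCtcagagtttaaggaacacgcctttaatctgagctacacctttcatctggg
A match describes letters only. *Pramel11*, *Pramel24* and *Pramel21*, with larger ratios than *Pramel17*, had a window without these letters.

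*Pramel11* (chr4:143620807-143626950, minus strand) had the largest ratio of all 19 genes. It had 25, 206, 43 and 191 reads, and its log2 ratio was 2.83 (2.01 to 3.83) in the knockdown against the control. It was -2.12 (-2.88 to -1.45) with the wild-type and 0.07 (-0.35 to 0.48) with the mutant protein against the knockdown, and 2.19 (1.51 to 2.95) between the rescue libraries. *Pramel24*, whose reading frame was 95.7% identical to that of *Pramel11*, had 32, 198, 69 and 162 reads, and log2 ratios of 2.43 (1.67 to 3.31), -1.39 (-2.00 to -0.82), -0.11 (-0.55 to 0.33) and 1.27 (0.69 to 1.90). Its ratio of the wild-type rescue to the control, 1.04 (0.16 to 2.00), had the highest value of the 19 genes, with a wide interval. *Pramel21* had 20, 129, 32 and 75 reads, with log2 ratios of 2.48 (1.53 to 3.63), -1.87 (-2.77 to -1.08), -0.60 (-1.23 to -0.003) and 1.27 (0.40 to 2.22). These 3 genes are low in the control, below 1 RPKM, and had wide intervals.

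*Pramel16* and *Pramel28* are another pair of near copies in the distal run, with reading frames 96.5% identical. *Pramel16* had 202, 924, 304 and 733 reads, and log2 ratios of 2.00 (1.69 to 2.33), -1.48 (-1.75 to -1.21), -0.16 (-0.36 to 0.04) and 1.32 (1.04 to 1.60). *Pramel28* had only 26, 79, 18 and 81 reads, and log2 ratios of 1.40 (0.48 to 2.45), -1.98 (-3.24 to -0.94), 0.21 (-0.46 to 0.88) and 2.19 (1.16 to 3.45). The intervals of the copies overlap in each comparison. *Pramel30* and *Pramel14* are the most alike of the expressed genes, with reading frames 99.3% identical and promoter windows 97.3% identical. *Pramel30* had 290, 844, 382 and 823 reads and *Pramel14* 109, 290, 168 and 265. Their log2 ratios of the knockdown to the control were 1.35 (1.08 to 1.64) and 1.22 (0.77 to 1.70), and of the wild-type rescue to the knockdown -1.02 (-1.27 to -0.77) and -0.66 (-1.07 to -0.26). Against the knockdown the mutant library stood at 0.14 (-0.06 to 0.34) and 0.05 (-0.30 to 0.40), and against the wild-type rescue at 1.16 (0.91 to 1.41) and 0.71 (0.30 to 1.12). The intervals of this pair also overlap in each comparison.

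*Pramel12* and *Pramel1*, at the start of the distal run, differed less. *Pramel12* had 587, 1227, 539 and 1020 reads, and its log2 ratio was 0.88 (0.67 to 1.08) in the knockdown against the control, -1.06 (-1.27 to -0.85) with the wild-type protein, -0.09 (-0.26 to 0.08) with the mutant and 0.97 (0.75 to 1.19) between the rescue libraries. *Pramel1* had 100, 161, 124 and 185 reads, and its log2 ratios were 0.50 (-0.03 to 1.04), -0.25 (-0.75 to 0.25), 0.38 (-0.07 to 0.83) and 0.62 (0.15 to 1.11). For *Pramel1* only the last of these was separated from 0 by counting error. *Pramel51*, alone on chromosome 12, had 5, 40, 10 and 26 reads, with a log2 ratio of 2.70 (0.94 to 5.51) in the knockdown against the control. Its log2 ratios against the knockdown were -1.82 (-3.64 to -0.42) with the wild-type and -0.44 (-1.57 to 0.63) with the mutant protein. Between the rescue libraries its ratio was 1.38 (-0.15 to 3.27), an interval that holds 0. The part of the deviation of its chromosome, given above, in these values was not tested.

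**Figure D3:**
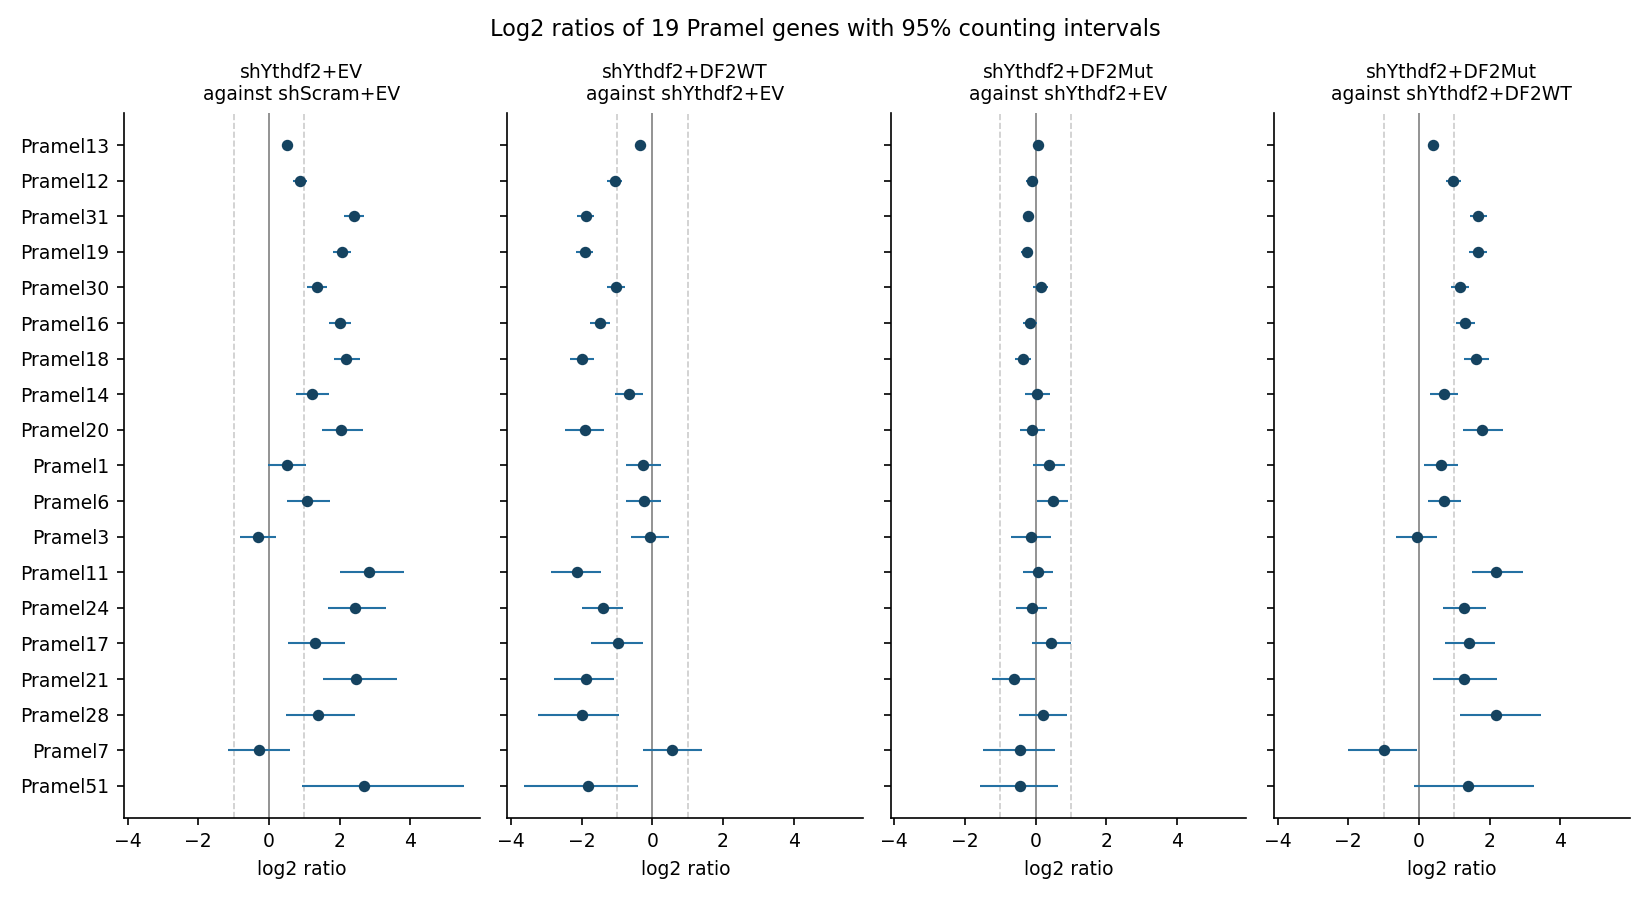
Log2 ratios of the 19 *Pramel* genes in 4 comparisons, with 95% counting intervals as bars, the solid line at 0 and dashed lines at a 2-fold difference. In the third panel, the mutant rescue against the knockdown, all 19 points lie between -0.60 and 0.48, while in the others most lie beyond a dashed line.

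*Pramel7* and *Pramel3* did not show the split of the libraries, and *Pramel6* showed it with a wild-type rescue close to the knockdown. *Pramel7* (chr2:87319432-87322762, minus strand) had 49, 46, 62 and 30 reads. Its log2 ratio was -0.27 (-1.16 to 0.60) in the knockdown against the control, 0.55 (-0.27 to 1.40) with the wild-type protein and -0.43 (-1.48 to 0.56) with the mutant, and a difference in any of these was not detectable at this depth. Between the rescue libraries it was lower with the mutant, at -0.99 (-1.99 to -0.07), opposite in sign to the family. *Pramel6* (chr2:87336909-87341209, plus strand) had 68, 165, 128 and 204 reads. Its levels were 1.04, 2.21, 1.87 and 3.09 RPKM, so all 3 libraries with the *Ythdf2* hairpin were above the control, with log2 ratios of 1.09 (0.50 to 1.71) in the knockdown and 0.85 (0.23 to 1.5) in the wild-type rescue. Against the knockdown it stood at -0.24 (-0.73 to 0.25) with the wild-type and 0.48 (0.05 to 0.92) with the mutant protein, and between the rescue libraries at 0.72 (0.26 to 1.20). The neighbours *Pramel6* and *Pramel7* had intervals of the knockdown to the control that overlap between 0.50 and 0.60. Their reading frames were 55.0% identical, so they are not near copies. *Pramel3*, on chromosome X (chrX:134203039-134213385, plus strand), had 138, 127, 111 and 103 reads, and its log2 ratios of -0.30 (-0.82 to 0.21), -0.07 (-0.61 to 0.48), -0.13 (-0.68 to 0.43) and -0.06 (-0.63 to 0.52) were all within counting error of 0. Its frame was the least like those of the other genes, 48.9% identical to the nearest, *Pramel13*.

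**Figure D4:**
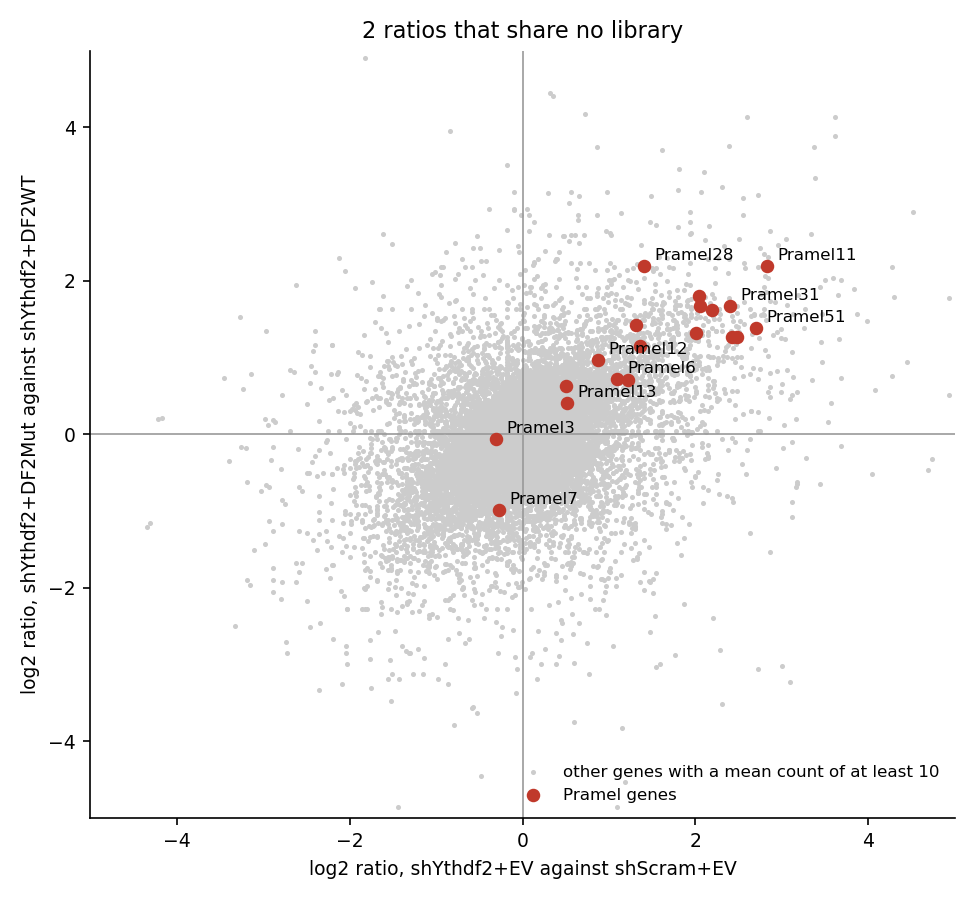
Log2 ratio of the knockdown to the control (horizontal) and of the mutant rescue to the wild-type rescue (vertical), ratios that share no library, for the 19 *Pramel* genes in red and 18567 other genes in grey, of which 34 lie outside the axes. The red points lie in the upper right except *Pramel3*, close to 0, and *Pramel7*, below 0 on both axes.

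The other 28 genes were near or at 0. Together they had 14, 74, 21 and 61 reads in the 4 libraries, so the reads too few to give single ratios had the same 2 high libraries. The genes closest to the minimum on either side were *Pramel5* with 9, 12, 7 and 8 reads below it and *Pramel51* above it. *Pramel15* had 0, 10, 0 and 14 reads, and *Pramel41*, the most read gene of chromosome 5, had 1, 11, 7 and 15. The 18 genes of the chromosome 5 run summed to 5, 42, 11 and 38 reads, and the log2 ratio of the knockdown to the control was 2.77 (1.02 to 5.58). Counting at least 1 read, 23 of the 47 genes were seen in the control, 32 in the knockdown, 26 in the wild-type rescue and 29 in the mutant rescue. The knockdown library was also the deepest, at 35742335 reads. The share of all genes seen in each library was not computed, so these counts are not read as a difference. The 11 genes with no read comprised 5 of the distal chromosome 4 run, *Pramel4*, *Pramel23*, *Pramel25*, *Pramel26* and *Pramel29*, and 6 of the chromosome 5 run. A count of 0 does not show that a gene is silent. The floor given above is no upper limit for genes that share most of their sequence with others, described next.

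How much of a copy's sequence is its own bears on these low counts, since reads that aligned to several places were left out by the authors. Transcripts of GENCODE vM21 were matched for 46 of the 47 genes (all but *Pramel18*), and each stretch of 150 bases, the read length, was looked up in all other genes. In the chromosome 5 run a median of 20.2% of the stretches was found in no other gene, and for 16 of the 18 genes it was under 50%. *Pramel36*, *Pramel37*, *Pramel49* and *Pramel50* had 0% of their own, and the frames of *Pramel36* and *Pramel49*, and of *Pramel37* and *Pramel50*, were 100% identical. The counts of such genes leave out most reads that their RNA could give. The exceptions in the run were *Pramel45*, with 92.5% of its own and 0, 3, 0 and 7 reads, and *Pramel34*, with 80.8% and no read. In the distal chromosome 4 run the median was 93.1%. There, *Pramel23*, *Pramel25*, *Pramel26* and *Pramel29* had between 84.9% and 100% of stretches of their own and still no read, while *Pramel4* had 17.9%. Among the 18 matched genes above the minimum the share ranged from 50.4% to 100%. The lower values were those of *Pramel3* (50.4%), *Pramel30* (59.7%), *Pramel14* (59.9%), *Pramel19* (65.4%) and *Pramel20* (67.3%), so these may be undercounted. How reads were split between near copies is uncertain. *Pramel3* has no near copy among the matched *Pramel* genes, and which genes share its stretches was not examined. *Pramel13*, *Pramel12*, *Pramel24*, *Pramel1*, *Pramel6* and *Pramel7* had 100%.

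**Figure D5:**
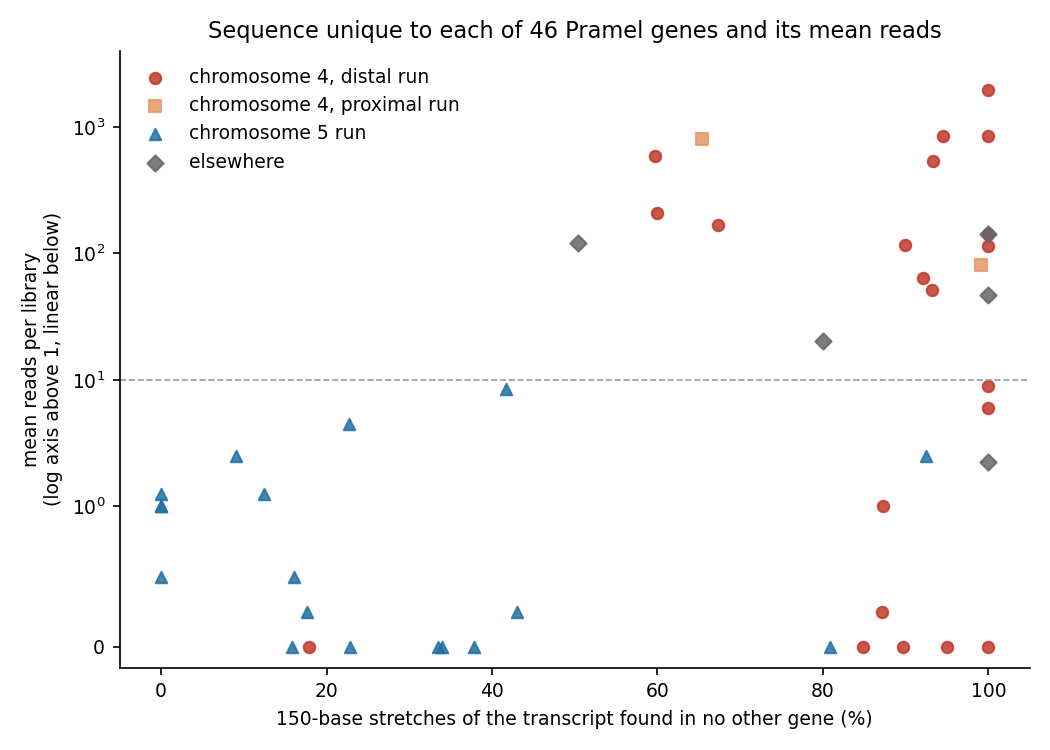
Share of 150-base stretches of each transcript found in no other gene, and mean reads per library on an axis that is logarithmic above 1, for 46 *Pramel* genes, with the minimum of 10 reads dashed. All 18 chromosome 5 genes (triangles) lie below the minimum and 16 of them under 50%, while distal chromosome 4 genes (circles) with over 80% lie both above and below it.

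Genes that act with the best known member were examined next, from lists chosen with earlier results of these data known. The CUL2 ligase genes *Cul2*, *Elob*, *Eloc* and *Rbx1* had a median log2 ratio of 0.40 in the knockdown against the control, with 0 of 4 at least 2-fold different in any of the 4 planned comparisons, and *Cul2* itself stood at -0.02. The 11 other genes of CUL2 substrate receptors, among them *Vhl*, had a median of -0.07 in the first comparison, with 0 of 11 past 2-fold in any. Of the 7 DNA methylation genes, 0 passed 2-fold in any comparison, and *Uhrf1*, encoding the protein that PRAMEL7 targets, had 18334, 21792, 20412 and 19627 reads and stood at a log2 ratio of 0.06, while *Dnmt1*, the maintenance methyltransferase, was at -0.09. In the LIF and STAT3 pathway 1 of 10 genes was at least 2-fold higher in the knockdown than in the control, *Gbx2* at 1.39, 0 were lower, and *Stat3* was at -0.17. *Junb* was at least 2-fold lower in the mutant rescue than in the wild-type rescue, at -1.04.

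Genes of the 2C-like state outside the family differed in the same libraries. Of 21 such genes above the minimum, 20 were at least 2-fold higher in the knockdown than in the control, with a median log2 ratio of 1.76, and 20 were at least 2-fold lower in the wild-type rescue than in the knockdown, with a median of -1.55. In the mutant rescue against the knockdown the median was -0.21 with 2 lower, *Tcstv1* at -2.02 and *Duxf3* at -1.16, and against the wild-type rescue it was 1.34 with 16 higher. *Zscan4d*, a marker of the state, had 1463, 6266, 1792 and 4814 reads. The exception was *Gm4340*, at 0.39 in the first comparison. The summed level of the whole list was 164, 467, 198 and 458 RPKM in the 4 libraries, against 51.5, 145, 62.0 and 136 for the *Pramel* genes, so both sums had the same 2 high libraries. Whether the *Pramel* differences follow the share of 2C-like cells was not tested.

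The cells had the marker genes of ESCs, with sums of the 10 markers between 3180 and 4010 RPKM and none at least 2-fold different between the knockdown and the control. The lists of other cell types had lower sums than the ESC markers, but some of their genes moved with the same libraries. The 6 primitive endoderm markers summed to 3.21, 4.44, 2.37 and 4.50 RPKM in the 4 libraries, and 2 of the 6, *Sox7* at 1.57 and *Dab2* at 1.07, were at least 2-fold higher in the knockdown than in the control. The 6 trophectoderm markers summed to 40.3, 23.9, 36.7 and 24.1 RPKM, and 2 of the 6, *Krt8* at -1.05 and *Elf5* at -1.86 (14, 4, 28 and 12 reads), were lower. The 6 fibroblast markers summed to 8.58, 5.33, 5.86 and 4.98 RPKM, 3 were above the minimum, and *Dcn* was at 0 in every library. Of 8 markers of oocytes and germ cells, where many PRAME genes are known, 5 were above the minimum and 0 of these passed 2-fold in any comparison. They summed to 61.5, 54.8, 59.3 and 55.1 RPKM, and *Ddx4* and *Dazl* stood at -0.01 and -0.06 in the knockdown against the control. The part of these markers in the *Pramel* values was not tested.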

How the data were processed

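Poly(A)+ RNA of 4 libraries of E14 ESCs, 1 per group, was sequenced as stranded pairs of 150-base reads. The authors deposited 1 table of read counts per gene. Per the file headers, these counts were made with featureCounts 2.0.3 from the mm39 RefSeq annotation of UCSC, at exons summed by symbol, unstranded and without reads that aligned to several places or genes. Both mates of a pair were counted. The submitters' processing notes name mm10, fastp 0.19.4, HISAT2 2.2.1 and DESeq2 1.40.2, and which build the reads were aligned to is not settled by the sources used here. Groups came from the titles of the labels. The study describes replicates, and the labels give 1 library per group. Which *Ythdf2* hairpin was used is not given in the sources used here.

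Libraries were scaled by TMM (edgeR 4.0.16, R 4.3.3) over genes that averaged 10 or more reads. Before log2 ratios were taken, 0.5 counts, scaled to each library, were added, and ratios of at least 2-fold were counted. Intervals are exact (Clopper-Pearson) at 95% on read pairs, taken as reads divided by 2, and shares of reads were treated alike. Levels are RPKM on the scaled totals. The computation was tested on simulated data. Named genes were all *Pramel* genes that averaged at least 10 reads, with ratios in every planned comparison for those that averaged at least 50. The members and lists were chosen with earlier results of these data known. Transcripts were from GENCODE vM21 and promoter windows from RefSeq (GRCm38.p6). Identities are of global alignments (Biopython 1.88) over all aligned columns, and reading frames are the longest in the longest transcript. Those sequences are of mm10, so no coordinate was carried to the mm39 counts. Alternatives were other scalings (DESeq2 1.42.0 size factors, total counts and upper quartiles), 5 added counts, a minimum of 1 or 50 mean reads, ratios of 1.5-fold, a counting interval that excludes 0, summed reads and log2 of levels plus 0.01.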

Additional observations from a re-analysis of the deposited data

How the results depend on the processing

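No median of the *Pramel* genes changed sign under the alternatives tried. Of the ratios of single genes, 13, of 9 genes, changed sign, all where the reads of a genomic run were summed in place of the gene's own. 4 of these were of *Pramel7*, among them -0.27 to 0.66 in the knockdown against the control and 0.55 to -0.02 in the wild-type rescue against the knockdown. With a minimum of 1 mean read in place of 10, 31 *Pramel* genes and 27285 genes in all remained. At least 2-fold different were then 24 higher and 1 lower in the knockdown against the control (14.9% and 13% of all genes), 0 higher and 21 lower in the wild-type rescue against the knockdown (12.1% and 13.5%), 2 higher and 5 lower in the mutant rescue against the knockdown (9.98% and 11.4%), 18 higher and 1 lower in the mutant rescue against the wild-type rescue (12.6% and 13.3%), and 5 higher and 2 lower in the wild-type rescue against the control (11.4% and 10.7%). The genes added there have few reads. At 1.5-fold, 1 was lower in the mutant rescue against the knockdown, 1 lower in the mutant rescue against the wild-type rescue and 5 higher in the wild-type rescue against the control. The shares of all genes past 1.5-fold were not computed, so these 1.5-fold counts say nothing about the family. Upper-quartile scaling put 1 gene past 2-fold lower in the mutant rescue against the wild-type rescue, where *Pramel7* stood at -0.99. With a prior count of 5, 0 were higher in the wild-type rescue against the control. The other 107 of 120 recomputed medians and counts were within 1.5 times the main count or within the spread of counting. Among these 107, the median of the knockdown against the control at a minimum of 1 mean read was 2.05, in place of 1.4. Of 465 recomputed ratios of single genes, 28 moved beyond their interval, all where the reads of a genomic run were summed in place of the gene's own. No paired analysis was possible because each group had 1 library, and for the same reason no library could be left out.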

Other observations

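Genes between the *Pramel* genes were also counted. Of 46 other genes inside the runs, 18 had no read and 7 were above the minimum. Of these 7, 5 were at least 2-fold higher in the knockdown than in the control, against 7.1% of all genes above the minimum. A gene can pass the minimum through the library in which it is high. The 46 include *Oog2*, *Oog3*, *Oog4* and *AA792892*, which are looked up below as PRAME or PRAME-like genes and did not reach the minimum. Whether others of the 46 belong to the family was not examined. *Gm13106* had 4, 65, 16 and 64 reads in the control, the knockdown, the wild-type rescue and the mutant rescue. *Gm13043* had 10, 31, 22 and 73, so it was highest with the mutant protein. In the proximal chromosome 4 run, *C130073F10Rik* and *Gm52666* had 53, 77, 42 and 50 and 49, 77, 41 and 68 reads, with log2 ratios of 0.35 (-0.40 to 1.12) and 0.46 (-0.30 to 1.26), beside 2.06 for the summed *Pramel* genes of that run.

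PRAME genes under other names had few reads. Of 13 listed, 6 were found in the table and 3 of them had no read in any library. *Pramex1* had 1, 13, 20 and 17 reads, *Oog1* 1, 10, 0 and 13, and *Oog4* 6, 4, 2 and 0. Unlike most *Pramel* genes, *Pramex1* was not lower with wild-type YTHDF2. Of 9 older clone names that were looked up as PRAME-like, 3 were found. *AA792892* had 0, 1, 0 and 0 reads, and *E330014E10Rik* had no read. *AU018091*, on chromosome 7, lies outside the runs and is not taken here as a PRAME gene.

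The letters GGACT, a form of the m6A consensus, occurred in the longest transcript of all 18 matched genes above the minimum, at a median of 1.32 per kilobase (range 0.56 to 2.51). Over 16957 genes above the minimum with a matched transcript (91.2%), the median was 1.02 and the quartiles were 0.58 and 1.5. *Pramel13*, with the small ratio, had 2.44 per kilobase, and *Pramel19* had 0.69. Other genes differed from this contrast. *Pramel3* and *Pramel12*, which were not 2-fold higher in the knockdown than in the control, had 1.08 and 1.03, and *Pramel17*, which was, had 2.02. A relation of GGACT density to the ratios was not tested. Whether any site is methylated was not measured here.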
